A study of Homo sapiens with 6 samples.

Results

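Two-site units with sites 1 to 5 kb apart are loci at which polyadenylated RNA of HEK293, a line of human embryonic kidney cells, ended at a pair of cleavage sites on the same strand with peaks 1000 to 5000 nt from each other. They are called wide units here. Of 28114 units of neighbouring poly(A) sites, 4645 held exactly 2 sites, and 2326 of these were wide units (8.27% of all units, 50.1% of the two-site units). They were chosen by measured levels: each site had to reach a mean of 1 CPM (reads scaled to the library total) over the 6 libraries, and sites with gaps of at most 5000 nt were joined. A site could therefore enter through a high level in a single library. At the limits, the nearest wide unit had its sites 1000 nt apart (chr10:135093141 and 135092141, minus strand) and the nearest two-site unit left out had sites 1 nt closer. At the far end the widest had 5000 nt (chr12:56113488 and 56118488, plus strand), and the smallest gap not joined was 5001 nt. The lowest site included had a mean of 1.001 CPM and the highest site left out 0.99998 CPM. Positions are those of the deposited files, build hg19. Genes, annotation and sequence of this build were not used here, so a unit is a stretch of genome and may join the ends of neighbouring transcripts.

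A-seq, a method that primes reverse transcription at the start of the poly(A) tail, was used to count 3' ends in 6 libraries, 1 per group. Cells without siRNA, cells with scrambled siRNA, cells with CF Im25 siRNA and cells with CF Im59 siRNA were processed with alkaline hydrolysis of the RNA. A further scrambled siRNA library and the CF Im68 siRNA library were processed with RNase I. Cells given siRNA were harvested after 3 days. The control of each knockdown was the scrambled library made with the same fragmentation, and the comparison asks which way poly(A) site choice moved when 1 subunit of the factor was targeted.

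Cleavage factor Im is part of the machinery that cuts nascent transcripts and allows a poly(A) tail to be added. It holds the small subunit CF Im25 (encoded by NUDT21), which recognises UGUA elements upstream of poly(A) sites, and a larger subunit that is either CF Im59 (encoded by CPSF7) or CF Im68 (encoded by CPSF6). Many human genes carry several poly(A) sites, and use of the upstream, or proximal, site gives a shorter transcript end than use of the downstream, or distal, site. The proximal share below is the percentage of the reads at both sites of a unit that lay at the upstream one.

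The libraries held 5351980 to 18183644 reads, of which 84.3% to 91.2% lay in nuclear sites. Wide units took 6.76% to 7.95% of these nuclear reads. The median wide unit had 136 reads without siRNA and 36 in the scrambled RNase I library, which was the shallowest. With 1 library per group no difference could be set against a spread between replicates, and no p-value is given. Intervals of single loci cover the counting error of reads only, those of shares of loci treat loci as independent, and all are 95% intervals.

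The wide units were spread over both strands, with 1186 on the plus and 1140 on the minus strand. The median distance between the peaks was 2438 nt (interquartile range 1628.5 to 3553.75 nt), and the median level of a unit was 8.27 CPM (interquartile range 4.16 to 19.9 CPM). The distal site was the more used in 1223 and the proximal site in 1103. Many were unequal: the less used site held a median of 29.9% of the reads, under 5% in 170 units and at least 20% in 1599.

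Most wide units stood apart from other sites. The median gap to the next same-strand site was 46932.5 nt upstream and 42138.5 nt downstream, while 658 units (28.3%) had such a site within 10 kb. A site on the opposite strand lay between the 2 peaks in 150 units (6.45%) and within 5 kb past the distal peak in 319 (13.7%).

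Within each fragmentation method, the highest median proximal share was that of the CF Im25 siRNA library (alkaline) and of the CF Im68 siRNA library (RNase I). Over the 816 wide units with at least 50 reads in all 6 libraries, the alkaline libraries had median proximal shares of 28.2% without siRNA, 34.8% in the scrambled control, 46.1% under CF Im25 siRNA and 30.3% under CF Im59 siRNA. The RNase I control had a median of 27.1% and the CF Im68 siRNA library one of 50.9%. The proximal site held more than 50% of the reads in 47.3% of these units under CF Im25 siRNA, against 40.8% to 42.4% in the other alkaline libraries, and in 50.5% under CF Im68 siRNA, against 40.9% in the RNase I control.

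**Figure D1:**
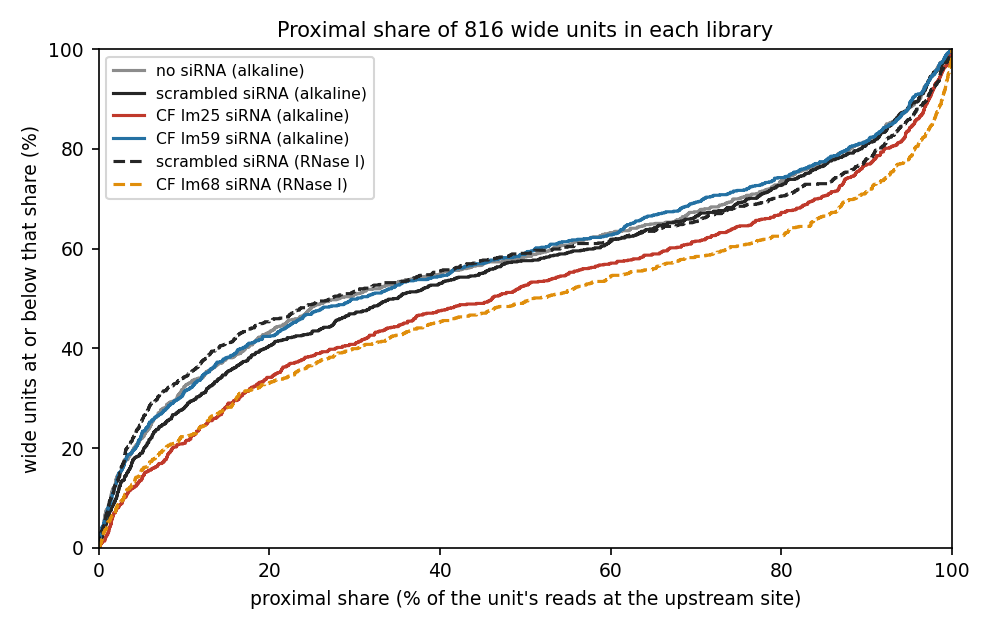
Distribution of the proximal share (percent of the reads at both sites) over the 816 wide units with at least 50 reads in every library, drawn as 1 cumulative curve per library (x axis, share; y axis, percent of units at or below it). The medians are 46.1% with CF Im25 siRNA, 50.9% with CF Im68 siRNA and 27.1% to 34.8% in the other 4 libraries.

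The scrambled siRNA libraries of the 2 fragmentation methods stood apart from each other at these loci. Of 867 wide units with at least 50 reads in both, the proximal share was at least 20 points higher with RNase I at 130 (15.0%) and at least 20 points lower at 142 (16.4%), with intervals that excluded 0. Over the 2 most used sites of all units the same rule called 24.7% and 21.1%. That background, here and below, holds only units in which each of these 2 sites had at least 5% of the reads. No such limit was set for the wide units. Changes after CF Im68 siRNA were therefore taken only against the RNase I control. Where libraries of both methods are described together, their order includes this difference between the methods.

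In the absence of a targeting siRNA few wide units differed. For no siRNA against scrambled siRNA, 30 of 1559 units with at least 50 reads in both libraries had a proximal share at least 20 points higher (1.92%) and 49 at least 20 points lower (3.14%). The background over the 2 most used sites of all units was 1.21% and 2.52%, and over all two-site units it was 1.31% and 2.01%. No wide unit differed by 40 points or more, and the median difference was -0.914 points. Over the 2 most used sites of all units, 1 was higher and 3 were lower by that much, of 7177 tested. No second control was made with RNase I, so the CF Im68 comparison has no such reference.

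After CF Im25 siRNA the wide units were called proximal more often than distal. Of 1377 tested, 194 had a proximal share at least 20 points higher (14.1%, interval 12.3 to 16.0%) and 52 at least 20 points lower (3.78%, interval 2.83 to 4.92%). The background over the 2 most used sites of all units was 18.3% proximal and 2.81% distal. Over all two-site units it was 11.0% and 2.68%. Among the 1207 tested wide units with at least 5% at the less used site, 16.1% and 4.31% were called. The share exceeded that of the control at 63.7% of the tested units, with a median change of 2.13 points. The median change was 30.2 points in the units called proximal and -26.9 points in those called distal. Of them, 38 and 10 changed by 40 points or more. Over the 2 most used sites of all units, 309 rose and 21 fell that far, of 6702 tested. The no siRNA library was also used as the control. Of the 193 proximal units that could then be tested, 157 were called again (81.3%), and of the 52 distal ones 25 (48.1%). The CF Im25 siRNA library is the same in both comparisons, so these repeated calls are not a replication. The background over the 2 most used sites with this control was 20.4% and 1.96%. It counts units whether called before or not, so it is not a reference for repeated calls.

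Single loci show the size of the largest differences. At chr7:77648131 and 77646398 on the minus strand, 1733 nt apart, the proximal site held 26.9% of 453 reads without siRNA, 22.1% of 122 in the scrambled control, 85.9% of 191 under CF Im25 siRNA and 33.7% of 190 under CF Im59 siRNA. Its share in the RNase I libraries was 54.5% of 134 reads with scrambled siRNA and 96.3% of 351 with CF Im68 siRNA. The CF Im25 siRNA library was the high one among the alkaline libraries, 63.7 points above its control (interval 53.8 to 71.5), and the CF Im68 siRNA library was 41.8 points above its own.

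Loci with similar changes of share differed in the ratios of their single sites, which also depended on the control used. At chr5:77782191 and 77781054 (minus strand, 1137 nt apart), the proximal share was 22.7% without siRNA, 14 of 117 reads in the scrambled control, 73.2% under CF Im25 siRNA and 26.0% under CF Im59 siRNA, and 17.6% of only 17 reads and 70.3% in the RNase I control and CF Im68 siRNA libraries. After CF Im25 siRNA the proximal site had 19.7 times the scaled reads of the control (interval 11.6 to 36.5), which had 14 reads there, while the distal site had 0.985 times. Against the no siRNA library the ratios were 7.63 and 0.822. At chr3:151151161 and 151154432 (plus strand, 3271 nt apart) the share was 11.8%, 8.10%, 62.8% and 11.7% in the same order of alkaline libraries, and 15.6% and 77.7% in the RNase I control and CF Im68 siRNA libraries. Here the proximal site had 4.33 times and the distal site 0.226 times the scaled reads of the control after CF Im25 siRNA. Against the no siRNA library they were 5.57 and 0.442, and the no siRNA library itself had 0.512 times the distal reads of the scrambled one. The CF Im25 siRNA library was the high alkaline library at both loci.

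At chr8:145539955 and 145538249 (minus strand) the scrambled library was the low one. The share was 56.8% without siRNA, 35.5% in the scrambled control, 89.5% under CF Im25 siRNA and 62.8% under CF Im59 siRNA, and 71.1% and 72.1% in the RNase I control and CF Im68 siRNA libraries. The unit was called proximal in all 3 alkaline comparisons, including no siRNA against scrambled siRNA (21.3 points), and the CF Im25 siRNA library was 32.7 points above the no siRNA library (interval 26.4 to 38.5). The largest rise after CF Im25 siRNA among called units with at least 100 reads in both libraries, at chr9:104152248, went from 16.1% to 89.4%, but this site already held 95.6% in the scrambled RNase I library.

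The falls after CF Im25 siRNA were fewer than the rises, and the ones named here were smaller in points. At chr12:98929406 and 98931484 (plus strand, 2078 nt apart) the proximal share was 97.6% without siRNA, 97.4% in the scrambled control, 53.6% under CF Im25 siRNA and 94.2% under CF Im59 siRNA, and 98.5% and 83.5% in the RNase I control and CF Im68 siRNA libraries. The CF Im25 siRNA library was the low one, with a change of -43.8 points, and the distal site held 14.9 times the scaled reads of the control. At chr5:180274615 and 180271217 (minus strand, 3398 nt apart) the share was 69.1%, 75.9%, 33.6% and 51.3% in the alkaline libraries, in the same order, and 73.4% and 67.4% in the RNase I ones. The distal site held 7.15 times the scaled reads of the control after CF Im25 siRNA and the proximal site 1.15 times. Against the no siRNA library the distal ratio was 4.204 and the proximal one 0.952.

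**Figure D2:**
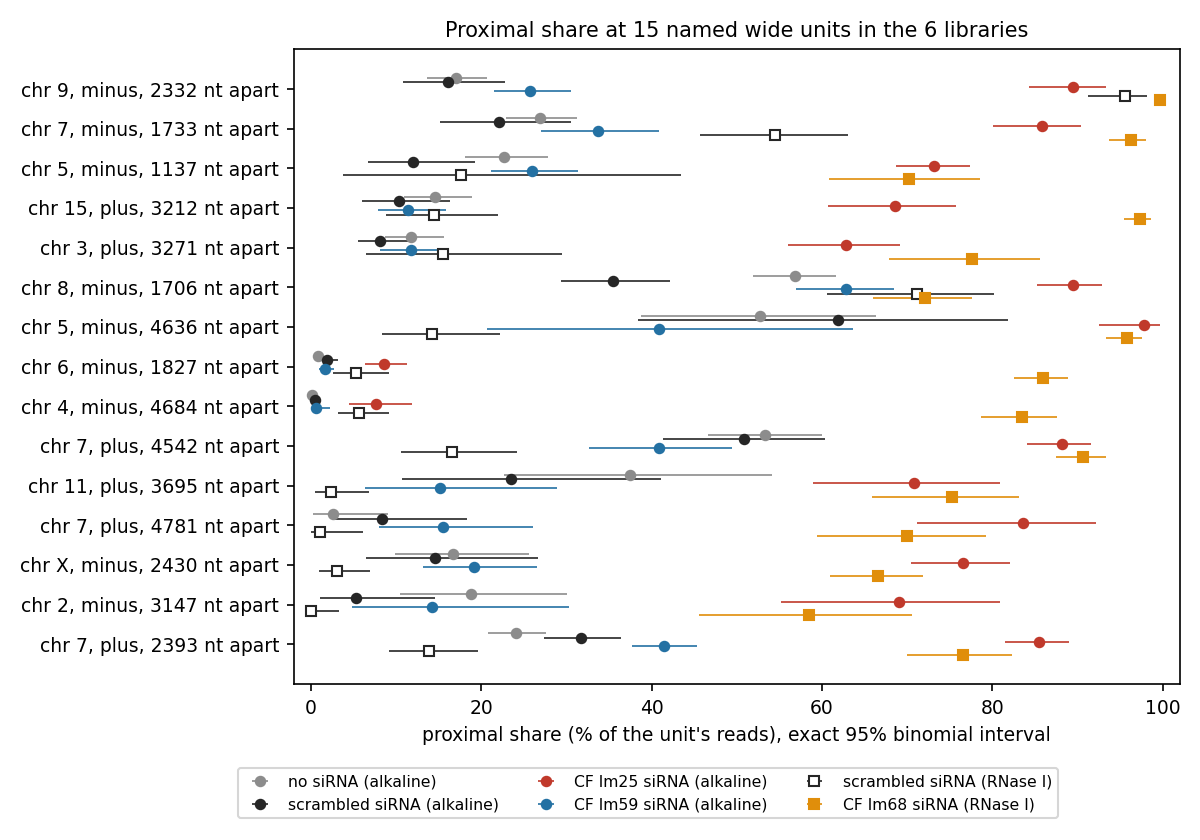
Proximal share (percent) of named wide units in each of the 6 libraries, with exact 95% binomial intervals of counting error. The CF Im25 siRNA or CF Im68 siRNA points lie above their controls at the loci chosen for rises, for example 85.9% against 22.1% at chr7:77648131 after CF Im25 siRNA.

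Nearly all wide units called under CF Im68 siRNA were called proximal. Of 945 tested, 188 had a proximal share at least 20 points higher (19.9%, interval 17.4 to 22.6%) and 13 at least 20 points lower (1.38%, interval 0.734 to 2.34%). The background over the 2 most used sites of all units was 24.4% and 1.78%, and over all two-site units 13.7% and 1.08%. Among the 781 tested wide units with at least 5% at the less used site, 23.9% and 1.66% were called. The share was higher at 69.2% of the tested units, with a median change of 3.18 points. The median change of the proximal calls was 37.7 points, and 84 changed by 40 points or more, against 0 of those called distal. Over the 2 most used sites of all units, 521 rose and 8 fell that far, of 5291 tested.

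At some loci the proximal site went from a trace to the main site. At chr6:89321819 and 89319992 (minus strand, 1827 nt apart) it held 5.26% of the reads in the RNase I control and 85.9% in the CF Im68 siRNA library, and 0.849%, 1.90%, 8.59% and 1.69% in the alkaline libraries without siRNA and with scrambled, CF Im25 and CF Im59 siRNA. At chr4:139093005 and 139088321 (minus strand, 4684 nt apart) it held 5.70% and 83.5% in the RNase I libraries, and 0.0909%, 0.461%, 7.62% and 0.631% in the alkaline ones. The CF Im68 siRNA library was the only high one at both loci. The CF Im25 siRNA library was the next highest at both, within 10 points of its control.

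Some sites differed widely between the controls of the 2 fragmentation methods. At chr5:118176424 and 118171788 (minus strand, 4636 nt apart) the proximal share was 14.3% of 112 reads and 95.8% of 405 in the RNase I control and CF Im68 siRNA libraries. In the alkaline libraries it was 52.7% of 55 reads without siRNA, 61.9% of 21 in the scrambled control, 97.9% of 94 under CF Im25 siRNA and 40.9% of 22 under CF Im59 siRNA. The change after CF Im68 siRNA was 81.5 points. Multiplied by the distance between the peaks, this puts the mean end of the unit's reads 3779 nt further upstream. Whether both peaks are ends of the same transcript was not tested. The alkaline controls lay well above the RNase I control here, with few reads.

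The plus-strand loci chr7:32623780 with 32628322 and chr11:77025129 with 77028824 had the same feature. At the former the share was 53.3% without siRNA, 50.9% in the scrambled control, 88.2% under CF Im25 siRNA and 40.8% under CF Im59 siRNA, then 16.5% and 90.7% in the RNase I libraries. At the latter it was 37.5%, 23.5%, 70.8% and 15.2%, then 2.38% and 75.2%. Both knockdown libraries were high at both loci, each against its own control.

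Falls after CF Im68 siRNA were rare, and 2 of them had at least 100 reads in both libraries. At chr5:16665413 and 16663445 (minus strand, 1968 nt apart) the proximal share was 98.9% to 99.7% in the 4 alkaline libraries, then 45.0% in the RNase I control and 5.77% after CF Im68 siRNA. Its distal site had 0.0867 to 0.310 CPM in the alkaline libraries, against 45.9 and 236 CPM in the RNase I ones, so nearly all reads at that site came from 1 fragmentation method. At chr10:27329010 and 27324579 (minus strand, 4431 nt apart) the proximal site held 120 of 150 reads without siRNA. Its share was 77.3% with scrambled, 82.3% with CF Im25 and 90.3% with CF Im59 siRNA, then 70.8% and 43.0% in the RNase I libraries. The CF Im68 siRNA library was the low one there, with a change of -27.8 points.

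Part of the wide units called proximal were so called in both of these comparisons, which share no library. Of 822 wide units tested in both, 114 had a proximal call for CF Im25 siRNA and 155 for CF Im68 siRNA, and 61 were in both lists (53.5% of the former, 39.4% of the latter). Of the 114, 110 also had a share above its control when CF Im68 was targeted, with a median change of 22.5 points, and of the 155, 141 had one above its control when CF Im25 was targeted, with a median change of 15.5 points. Among all 822 the share was higher at 574 after CF Im68 siRNA and at 535 after CF Im25 siRNA. No unit was called in opposite directions, and 2 were called distal in both, of 22 and 12. Across the 822 units the changes had a Pearson's r of 0.514 and a Spearman's rho of 0.472. These describe loci that are not independent replicates. The overlap was not computed for other units, so it cannot be called particular to the wide units.

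**Figure D3:**
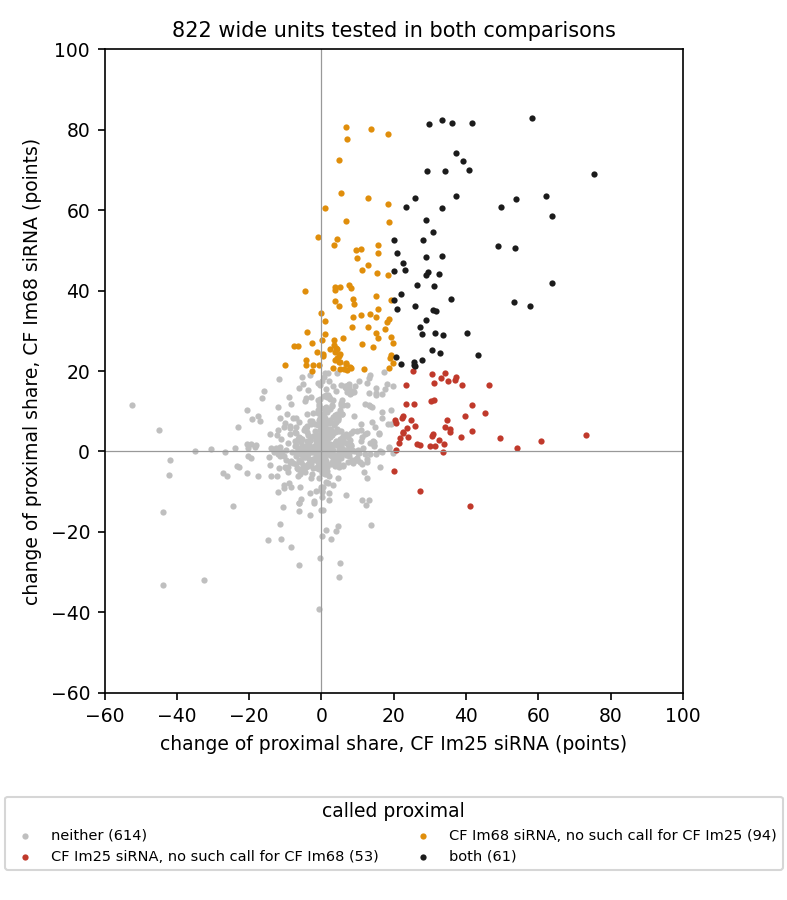
Change of the proximal share in percentage points after CF Im25 siRNA (x axis, against the alkaline scrambled library) and after CF Im68 siRNA (y axis, against the RNase I scrambled library), 1 point per wide unit tested in both. Most of the 822 points lie at small changes, and the 61 units called proximal in both comparisons lie at the upper right.

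The 61 shared units had a median change of 30.9 points after CF Im25 siRNA and 44.8 points after CF Im68 siRNA, and the latter was the larger at 44 of them. Their median distance was 1976 nt. At chr7:94920931 and 94925712 (plus strand, 4781 nt apart) the proximal site held 2.60% of the reads without siRNA, 8.33% in the scrambled control, 83.6% under CF Im25 siRNA and 15.5% under CF Im59 siRNA, then 1.12% and 70.0% in the RNase I control and CF Im68 siRNA libraries. At chrX:138810945 and 138808515 (minus strand, 2430 nt apart) the shares were 16.7%, 14.5%, 76.6% and 19.2%, then 3.05% and 66.6%. At each locus the CF Im25 siRNA library was far above the other alkaline libraries, and the CF Im68 siRNA library far above the RNase I control.

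Each knockdown library was also the highest of its method at chr2:23974688 and chr7:66421145, which complete, with a locus on chromosome 15, the 5 shared units chosen for the larger value of their smaller change. At chr2:23974688 and 23971541 (minus strand, 3147 nt apart) the shares were 18.8%, 5.26%, 69.1% and 14.3% in the alkaline libraries. Of the 111 reads in the RNase I control, 0 lay at the proximal site, which allows a share of up to 2.70% (3 counts of the total), and after CF Im68 siRNA it held 58.5%. At chr7:66421145 and 66423538 (plus strand, 2393 nt apart) the shares were 24.1%, 31.8%, 85.5% and 41.5%, then 13.8% and 76.5%, so that the changes were 53.7 points after CF Im25 siRNA and 62.7 points after CF Im68 siRNA.

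At chr15:63598113 and 63601325 (plus strand, 3212 nt apart) the rise was among the largest after either siRNA. The proximal site held 14.6% of 329 reads without siRNA, 10.4% of 154 in the scrambled control, 68.6% of 156 under CF Im25 siRNA and 11.4% of 263 under CF Im59 siRNA, and 14.5% of 124 and 97.4% of 455 in the RNase I control and CF Im68 siRNA libraries. The 4 other libraries lay between 10.4% and 14.6%, and the changes were 58.2 points (interval 48.6 to 66.0) after CF Im25 siRNA and 82.8 points (interval 75.3 to 88.1) after CF Im68 siRNA. The distal site held 0.319 times the scaled reads of its control after CF Im25 siRNA and 0.0484 times after CF Im68 siRNA.

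After CF Im59 siRNA few wide units differed, and more of them were called distal. Of 1449 tested, 36 had a proximal share at least 20 points higher (2.48%) and 71 at least 20 points lower (4.90%). The background over the 2 most used sites of all units was 2.53% and 4.76%, and over all two-site units 2.18% and 3.45%, so the wide units were near the former. The median change was -1.03 points, and 3 units in each direction changed by 40 points or more. Over the 2 most used sites of all units, 11 rose and 16 fell that far, of 6889 tested. Against the no siRNA library, 11 of the 35 proximal and 16 of the 71 distal units that could be tested were called again. These repeated calls use the same CF Im59 siRNA library, so they are not a replication. The background with that control, over units whether called before or not, was 1.62% and 2.08%. The comparison with the scrambled library uses the same control library as those of CF Im25 siRNA and of no siRNA, so it is not independent of them.

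At chr10:117823871 and 117821835 (minus strand, 2036 nt apart) the proximal share was 59.4% without siRNA, 53.3% in the scrambled control, 209 of 220 reads under CF Im25 siRNA and 81.4% under CF Im59 siRNA, and 87.2% and 98.8% in the RNase I control and CF Im68 siRNA libraries. At chr17:15881058 and 15879877 (minus strand, 1181 nt apart) it was 39.7%, 24.0%, 62.8% and 51.7%, then 81.2% and 81.1%. All 3 of the other alkaline libraries were above the scrambled library at both loci. At chr8:31031271 and 31033430 (plus strand, 2159 nt apart) it was 57.4%, 83.5%, 79.6% and 48.2%, then 2 of 12 and 8 of 10 reads in the RNase I libraries. There the CF Im59 siRNA library differed by -35.2 points from the scrambled library, and the library without siRNA was also low. The other falls named for CF Im59 siRNA were at chr10:98985140 and 98981939 (minus strand), with a change of -44.9 points, and at chr14:24907610 and 24910546 (plus strand), with -43.2 points. Their values under CF Im25 siRNA were -35.1 and -45.1 points, against the same control library. At chr10:98985140 the scrambled library was the high alkaline one, with a share of 49.5% against 18.0% without siRNA, so that no siRNA was itself called distal (-31.5 points). Against the no siRNA library that locus was not called for CF Im59 siRNA (-13.4 points) or CF Im25 siRNA (-3.54 points). Against the same library chr14:24907610 was called distal for both (-32.7 and -34.6 points). Its share was 78.8% in the alkaline scrambled library, but 6.63% in the RNase I control and 11.9% after CF Im68 siRNA.

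In a minority of wide units the more used site was a different one after CF Im25 or CF Im68 siRNA, by whatever change of share. Of the units whose distal site was the more used in the control, the proximal site was the more used in 103 of 765 after CF Im25 siRNA (13.5%), 110 of 559 after CF Im68 siRNA (19.7%), 38 of 800 after CF Im59 siRNA (4.75%) and 36 of 849 without siRNA (4.24%). Over the 2 most used sites of all units the percentages were 20.9%, 27.1%, 5.70% and 4.48%, all above those of the wide units. That background leaves out units with either site under 5% of the reads, so the 2 sets are unlike. Of the 103 and 110 wide units, 83 and 95 were also called shifted. In the opposite direction the counts were 31 of 611 (5.07%), 10 of 386 (2.59%), 67 of 644 (10.4%) and 56 of 704 (7.95%). Over the 2 most used sites of all units these percentages were 7.03%, 5.29%, 13.5% and 11.2%, also above those of the wide units. The change of share times the distance between the peaks gives the change of the mean end of a unit's reads, which need not be ends of the same transcript. For a unit called proximal after CF Im25 siRNA, this mean end lay a median of 659 nt further upstream (interquartile range 477 to 1029 nt). After CF Im68 siRNA it lay 797 nt further upstream (interquartile range 535 to 1269 nt). For units called distal after these siRNAs the medians were -831 nt and -653 nt, with downstream as negative.

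The levels of the single sites show which end carried the change. Reads were scaled to each library's reads in nuclear sites, and a ratio of 2 or more either way, with at least 50 reads in 1 library and an interval that excluded 1, made a call. After CF Im25 siRNA the proximal site was higher in 236 and lower in 106 of 955 units, and the distal site higher in 120 and lower in 215 of 996. Over all nuclear sites 19.2% were called higher and 17.0% lower. After CF Im68 siRNA the proximal site was higher in 336 and lower in 31 of 895 units, and the distal site higher in 34 and lower in 151 of 769, beside 23.2% and 11.4% of all nuclear sites. Proximal and distal sites of wide units were thus called in opposite balance after both siRNAs.

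Within the 194 units called proximal after CF Im25 siRNA, the proximal site passed the rule as higher in 94 and the distal site as lower in 69, with 20 in both lists and 51 in neither. Only 151 of these proximal and 142 of these distal sites had the reads to be tested, so the 51 include untested sites. Among the 188 units called proximal after CF Im68 siRNA the proximal site was higher in 124 and the distal site lower in 95, with 58 in both lists and 27 in neither, where 167 proximal and 155 distal sites could be tested. With 0.5 reads added to each count, the median log2 ratio after CF Im25 siRNA was 1.34 at the proximal and -1.15 at the distal site. After CF Im68 siRNA it was 1.89 and -1.59. These units were called by a rise of the share in the same libraries. A ratio higher at the proximal than at the distal site therefore follows from the call. Neither the high proximal nor the low distal ratios are separate evidence of a shift. The median log2 ratio of the whole unit was 0.04 and -0.14. The totals of these units thus differed little in the median.

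**Figure D4:**
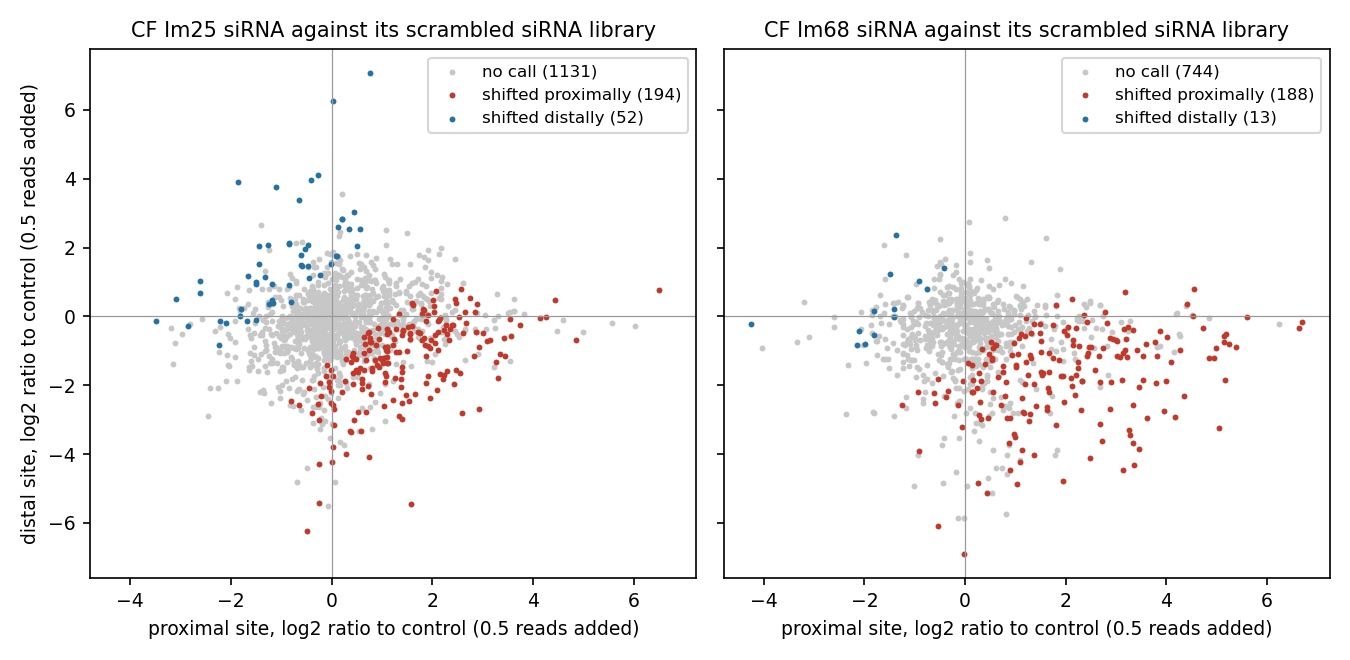
Log2 ratio of scaled reads (0.5 reads added to each count) at the proximal site (x axis) and the distal site (y axis) of the tested wide units, coloured by call, for CF Im25 siRNA and CF Im68 siRNA against their own controls. The medians of the units called proximal are 1.34 and -1.15 after CF Im25 siRNA and 1.89 and -1.59 after CF Im68 siRNA. The calls use the same libraries, so a proximal ratio above the distal ratio in these units follows from the call.

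The total of the unit was called about as often higher as lower after CF Im25 siRNA (212 and 222 of 1822, beside 13.1% and 12.1% of all units). After CF Im68 siRNA it was higher in 150 and lower in 122 of 1489 units, beside 11.2% and 6.96% of all units. After CF Im59 siRNA it was higher in 132 and lower in 196 of 1877 units, beside 8.61% and 11.1%, and without siRNA in 48 and 87 of 2006 units, beside 4.29% and 4.30%.

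After CF Im59 siRNA the proximal site was higher in 63 and lower in 127 of 883 units, and the distal site higher in 140 and lower in 104 of 1083, beside 10.4% and 13.0% of all nuclear sites. Without siRNA the proximal site was higher in 34 and lower in 74 of 1021 units, and the distal site higher in 78 and lower in 47 of 1261, beside 5.63% and 4.85%. With TMM scaling the proximal counts became 80 and 104 after CF Im59 siRNA and 55 and 54 without siRNA, and the distal counts 173 and 76 and 116 and 36. The balance of the distal site after CF Im59 siRNA turned, to 85 higher and 110 lower, with the no siRNA library as the control.

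Set beside the two-site units with closer sites, the wide units were called proximal about as often as those with sites 200 to under 1000 nt apart and more often than those under 200 nt. After CF Im25 siRNA the percentage called proximal was 14.1% in the wide units, 13.0% (interval 10.7 to 15.6%) at 200 to under 1000 nt and 3.83% (interval 2.61 to 5.39%) under 200 nt. In the RNase I pair it was 19.9%, 16.7% (interval 13.7 to 20.0%) and 2.85% (interval 1.75 to 4.37%). The intervals of the wide units and of the 200 to under 1000 nt units overlap in both comparisons, and those of the units under 200 nt lie below. Distal calls after CF Im25 siRNA were 3.78% of the wide units, 2.10% at 200 to under 1000 nt and 1.36% under 200 nt. The same order was seen without a targeting siRNA. For no siRNA against scrambled siRNA, distal calls were 3.14%, 1.42% and 0.575%, and proximal calls 1.92%, 1.18% and 0.345%.

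Within the wide units no difference by distance was larger than the intervals. In steps of 1000 nt from 1000 to 5000 nt, the percentage called proximal after CF Im25 siRNA was 15.4%, 15.5%, 11.0% and 12.1%. For CF Im68 siRNA it was 22.7%, 20.2%, 15.2% and 17.9%. The percentages above 3000 nt were lower than those below it in both comparisons, but their intervals overlap.

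**Figure D5:**
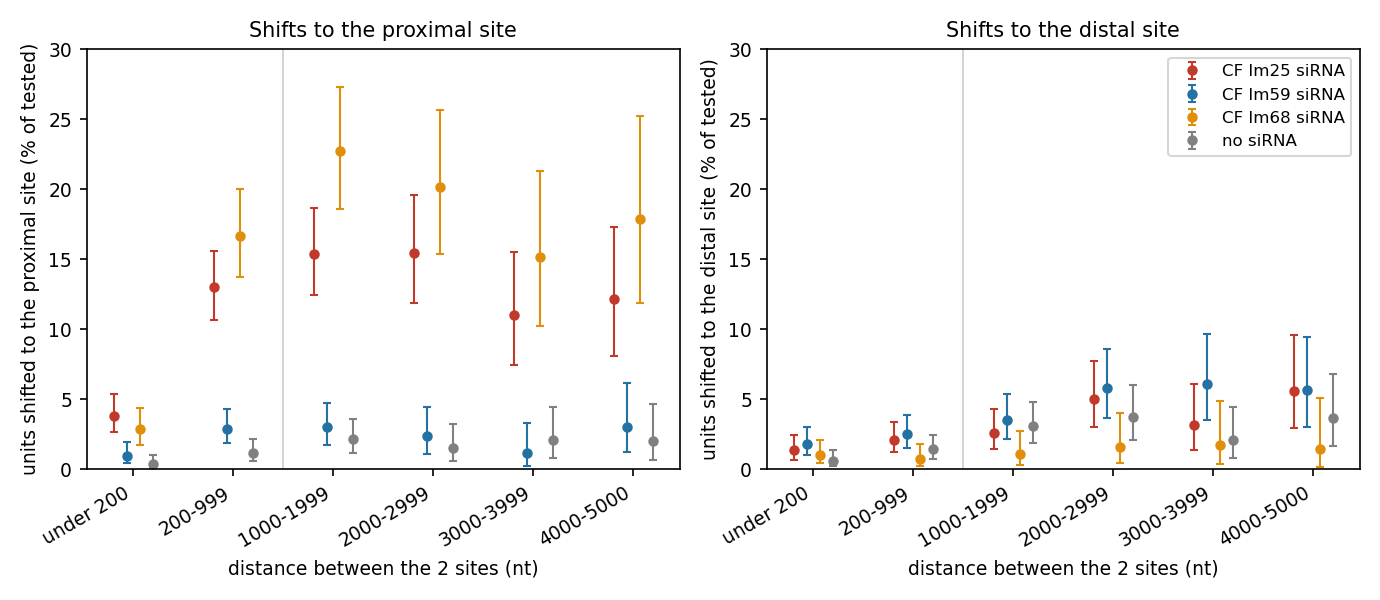
Percentage of tested units called proximal (left) and distal (right) by the distance between the sites (nt) in 4 comparisons, with the closer two-site units left of the grey line, and exact 95% binomial intervals that treat loci as independent. After CF Im68 siRNA the proximal percentages of the wide units, in steps of 1000 nt, are 22.7%, 20.2%, 15.2% and 17.9%, with overlapping intervals. Those of the closer units are 2.85% under 200 nt (interval 1.75 to 4.37%, below those of all wide classes) and 16.7% at 200 to under 1000 nt.

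The class with a baseline proximal share of 80% or more was called proximal least often. Baselines were taken from a library outside the comparison: the one without siRNA for CF Im25 siRNA, and the alkaline scrambled one for CF Im68 siRNA. With a baseline share under 20%, 20 to under 50%, 50 to under 80% and 80% or more, 13.7%, 23.2%, 19.8% and 2.44% were called proximal after CF Im25 siRNA. For CF Im68 siRNA these were 25.6%, 22.2%, 21.9% and 8.30%. A rise of 20 points cannot occur above a control share of 80%, which limits the last class by construction.

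Wide units with close neighbours were called proximal less often. After CF Im25 siRNA, 29 of 378 units with another same-strand site within 10 kb were called proximal (7.67%, interval 5.20 to 10.8%), against 165 of those without one (16.5%, interval 14.3 to 19.0%). Distal calls were 25 (6.61%) and 27 (2.70%). With CF Im68 siRNA the proximal counts were 30 of 239 (12.6%, interval 8.63 to 17.4%) and 158 of 706 (22.4%, interval 19.4 to 25.6%). The class with neighbours thus had the lower proximal percentage in both comparisons. Its tested units also had the higher median control share, 47.8% against 36.2% for CF Im25 siRNA and 39.7% against 25.1% for CF Im68 siRNA. The part of this difference in the calls was not tested.

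For units with an opposite-strand site between their peaks the intervals were separate in 1 of the comparisons. After CF Im25 siRNA 9 of 112 were called proximal (8.04%, interval 3.74 to 14.7%), against 14.6% of the units without one (interval 12.7 to 16.7%), so the intervals overlap. After CF Im68 siRNA 7 of 81 were called proximal (8.64%, interval 3.55 to 17.0%), against 20.9% (interval 18.3 to 23.8%).

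How narrowly the reads of a site were placed differed between the fragmentation methods. In the alkaline libraries the peak nucleotide held a median of 69.5% to 77.2% of the reads of a proximal site with at least 50 reads, and in the RNase I libraries 52.9% and 55.7%. Proximal sites with at least 90% of their reads at 1 nucleotide were 24.6% to 32.1% of such sites in the alkaline and 6.30% and 8.97% in the RNase I libraries. Wide units with such a site in the pooled data were 525 of 1377 tested for CF Im25 siRNA (38.1%) but 41 of the 194 called proximal (21.1%). For CF Im68 siRNA they were 262 of 945 tested (27.7%) and 25 of the 188 called proximal (13.3%). For CF Im59 siRNA they were 21 of the 36 called proximal (58.3%), and for no siRNA 16 of 30 (53.3%), beside 39.1% and 39.96% of the units tested. The part of such sites in these calls was not tested. Some loci named above for rises have such a site: the proximal one at chr3:151151161 (92.6% at the peak nucleotide), and the distal ones of chr4:139093005 (97.0%) and chr7:66421145 (93.6%).

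Few reads lay between the 2 sites, which the choice of units favours. A further site with a mean of 1 CPM or more between the peaks would have put the unit outside this set. Their median percentage of the reads from the proximal to the distal site was 1.15% in the control and 1.28% after CF Im25 siRNA, and 1.25% and 1.42% in the comparison of CF Im68 siRNA. Units with at least 10% of the reads between the sites numbered 79 of 945 in the RNase I control and 105 after CF Im68 siRNA.

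At the other end, 97 wide units kept their proximal share within 5 points in all 6 libraries, and in 90 of these the less used site held under 5% of the reads. Among the most abundant, chr20:2446065 with 2442289 (minus strand) had a share of 0.0722% to 0.277%, chrX:118920469 with 118918604 (minus strand) 99.7% to 100%, and chr9:127622489 with 127620163 (minus strand) 0.0196% to 0.0869%. Each of these ended almost wholly at 1 site. At chr17:79989027 and 79992080 (plus strand, 3053 nt apart), also among the most abundant, the share was 0.621% to 1.21% in the alkaline libraries and 22.6% and 26.6% in the RNase I libraries. Its distal site had 59.3 and 71.7 CPM in the RNase I libraries and 3541 to 6298 CPM in the alkaline ones, so the libraries of the 2 methods stood apart there.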

How the data were processed

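The deposited files give raw counts: per nucleotide and strand, the whole number of A-seq reads whose 3' end lies there, 1 file per library. The builds hg19 and GRCh37 are named in the submitters' processing notes; the aligner, the read filters and the handling of duplicate or internally primed reads were not given in the sources used here.

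Libraries were scaled to CPM, pooled at equal weight, and sites called as the highest remaining position with all ends within 25 nt on its strand. Nuclear sites with a mean of at least 1 CPM were joined into units at gaps of at most 5000 nt. A shift was called at a change of at least 20 points, at least 50 reads over the 2 sites in both libraries, and a 95% Newcombe interval of the difference excluding 0. A site or unit level was called at a 2-fold ratio of reads scaled to nuclear-site reads, at least 50 reads in 1 library, and an exact 95% interval of the ratio excluding 1. Intervals for shares are exact binomial (Clopper-Pearson). PCR copies are not independent molecules, so all intervals cover counting error only. With 1 library per group no test was made.

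Members, lists and rules were chosen with earlier results of these data known. Loci named are the largest rises (6 for CF Im25 and CF Im68 siRNA, 3 for CF Im59 siRNA) and the 3 largest falls among called units with at least 100 reads in both libraries, for CF Im25 and CF Im59 siRNA also in the same direction against no siRNA. Added to these are the 5 called proximal after both CF Im25 and CF Im68 siRNA with the largest smaller change, the 3 most abundant with shares within 5 points, the 3 most abundant of all, and the unit nearest each distance limit. Loss of the siRNA targets was not analysed here. Tools were Python 3.11.15, numpy 2.4.6, pandas 2.3.3, scipy 1.17.1, numba 0.67.0, matplotlib 3.10.9, and edgeR 4.0.16 in R 4.3.3 for TMM factors only.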

Additional observations from a re-analysis of the deposited data

How the results depend on the processing

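The direction was kept in every setting tried: more units called proximal than distal after CF Im25 siRNA in 11 of 11 settings and after CF Im68 siRNA in 10 of 10, and more called distal than proximal after CF Im59 siRNA in 11 of 11 and for no siRNA in 10 of 10. The percentage called proximal ran from 7.26% to 20.9% after CF Im25 siRNA and from 12.6% to 27.6% after CF Im68 siRNA. Of 156 alternative values, 64 stayed within 1.5 times the main count, and the other 92 follow as counts, proximal then distal, for CF Im25, CF Im59, CF Im68 and no siRNA in this order. A change of 30 points gave 100 and 22, 9 and 19, 119 and 4, and 4 and 9. A minimum of 20 reads gave 348 and 132, 93 and 173, 388 and 55, and 70 and 115, and one of 100 reads 98 and 19, 7 and 25, 96 and 2, and 7 and 16. Thinning all libraries to the smallest gave 109 and 26 for CF Im25, 15 and 35 for CF Im59, 7 distal for CF Im68, and 16 and 20 for no siRNA. Ends within 10 nt gave 34 distal for CF Im25 and 109 and 8 for CF Im68. A site minimum of 2 CPM gave 302 proximal for CF Im25, and 300 and 20 for CF Im68. Joining over 10 kb gave 27 distal for CF Im25, 23 proximal for CF Im59 and 17 proximal for no siRNA. Leaving out units with a site that holds at least 90% of its reads at 1 nucleotide, chosen after seeing the data, gave 33 distal for CF Im25, 15 proximal for CF Im59, 8 distal for CF Im68, and 14 and 29 for no siRNA.

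For site levels the counts are proximal higher, proximal lower, distal higher and distal lower. A minimum of 100 reads gave 137, 52, 48 and 125 for CF Im25, 37, 64, 71 and 53 for CF Im59, 178, 13, 18 and 64 for CF Im68, and 10, 35, 36 and 16 for no siRNA. No minimum gave 478, 281, 253 and 505, then 175, 363, 266 and 282, then for CF Im68 239 proximal lower with 74 and 562 distal, then 77, 288, 141 and 185. Thinning gave 132, 66, 57 and 133, then 37, 80, 56 and 67, then for CF Im68 152 proximal higher and 13 distal higher, then 10, 37, 25 and 28. TMM scaling, which moved log2 ratios by 0.01, 0.12, 0.18 and 0.12, gave 55 proximal higher for no siRNA, and the no siRNA control gave 85 distal higher for CF Im59. The balance of the distal site after CF Im59 siRNA turned with no minimum, with thinning and with the no siRNA control. The cause of these differences was not tested. No paired analysis was possible because each group held 1 library. Motif windows were not run, since no genome of the files' build was used here.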

Other observations

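The percentage of wide units called proximal ranged widely over chromosomes 1 to 22 and X, most of which held few tested units. For CF Im25 siRNA it ran from 8 of 132 on chromosome 19 (6.06%, interval 2.65 to 11.6%) to 4 of 14 on chromosome 18 (28.6%, interval 8.39 to 58.1%). For CF Im68 siRNA it ran from 3 of 34 on chromosome 10 (8.82%, interval 1.86 to 23.7%) to 7 of 19 on chromosome 20 (36.8%, interval 16.3 to 61.6%), with 8 of 88 on chromosome 19 (9.09%, interval 4.01 to 17.1%). Over the 2 most used sites of all units of chromosome 19, 10.1% were called proximal under CF Im25 siRNA and 9.12% under CF Im68 siRNA, beside 18.3% and 24.4% on all chromosomes. These chromosomes were picked after their values were seen, and no difference between chromosomes was tested.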
